A study of Mus musculus with 4 samples.

Results

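A set of 10 nuclear genes that govern how much mitochondrial material a cell makes and how its mitochondria join and divide was followed through RNA-seq of cultured mouse neural progenitors. They were taken by name, and all 10 of 10 were found as entries of their own among the 21091 entries of the expression tables. The progenitors came from C57BL/6 embryos at embryonic day 11 (E11) or 14 (E14) and were kept for 3 days as a suspension culture with EGF and FGF before RNA was taken. Each stage had a WT group and a group in which Nestin-Cre deletes *Stat3* (*Stat3* cKO), giving 4 groups of 1 library each. Cre is driven by a rat Nestin promoter and enhancer, and the deletion removes the exons for the SH2 domain. The labels and the RNA-seq methods call the control wild-type, whereas the animal methods describe Nestin-Cre embryos with 1 floxed and 1 normal *Stat3* allele as controls, so it is not settled whether the WT libraries carried Cre, and deletion and Cre cannot be told apart if they did not. Whether a library came from 1 embryo or from several is not given in the sources used here.

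Mitochondria are built from proteins of the nuclear genome and a few of their own. PGC-1alpha (*Ppargc1a*) and PGC-1beta (*Ppargc1b*) are coactivators that bind transcription factors such as NRF1 (*Nrf1*) and ERRalpha (*Esrra*), which act on genes of respiration, and TFAM (*Tfam*) packages mitochondrial DNA and starts its transcription. The mitofusins (*Mfn1*, *Mfn2*) join outer membranes, OPA1 (*Opa1*) joins inner membranes and shapes cristae, the GTPase DRP1 (*Dnm1l*) constricts the organelle, and FIS1 (*Fis1*) is an outer membrane adaptor of fission. The balance of fusion and fission sets whether mitochondria are long networks or short fragments. The study followed the respiration of progenitors from E14 onward. It also reported longer mitochondria in *Stat3* cKO cells by microscopy and proposes a defect of fusion and fission. The number of mitochondrial DNA copies did not differ significantly there.

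Values are FPKM, fragment numbers adjusted for transcript length and library size, so that levels can be compared between genes. Sums of FPKM ran from 806587 to 1461770 over the libraries, and comparisons between libraries depend on the scaling. With 1 library per group there is no spread between replicates and no test, and a gene is said to have risen or fallen only where its ratio reached 2. A library held about 37700000 (E11 *Stat3* cKO) to 48800000 fragments (E11 WT), as judged from the FPKM that a lone fragment gives, and intervals derived from this are approximate and cover counting error only. Apart from the coactivators, each member rested on about 1013 to 8574 fragments per library. *Stat3* had 7.41 FPKM in E11 WT, 6.74 in E11 *Stat3* cKO, 27.6 in E14 WT and 9.55 in E14 *Stat3* cKO, so it was much lower in *Stat3* cKO at E14 and little lower at E11. Its FPKM also covers exons that the deletion leaves in place. The Y-linked gene *Ddx3y* was at 25.1 FPKM in E14 *Stat3* cKO, 0.0569 in E14 WT and 0 in both E11 libraries. Embryo sex therefore cannot be told apart from genotype at E14, from stage in *Stat3* cKO, or from the difference of the genotype ratios between stages. All 8 neural progenitor markers (such as *Sox2*, *Nes* and *Pax6*) were detected in each library, with summed levels of 1383 to 7643 FPKM that were mostly *Fabp7* and *Vim*. From E11 to E14, 4 of the 8 were higher and 4 lower in each genotype, with *Pax6* and *Msi1* falling 2-fold in both. All 4 mesenchymal markers (*Col1a1*, *Col1a2*, *Col3a1*, *Pdgfrb*) were far lower at E14, with summed levels of 885 to 978 FPKM at E11 and 8.28 to 11.4 at E14. The 4 astrocyte markers summed to 8.60 and 10.6 FPKM at E11 and to 84.6 in WT and 149 in *Stat3* cKO at E14. Most of this was *Aldh1l1* (78.6 and 136 FPKM at E14), while *Gfap* went the other way between genotypes, at 0.901 and 0.186. The 4 oligodendrocyte lineage markers summed to 66.8 to 87.2 at E11 and, at E14, to 555 in WT and 527 in *Stat3* cKO. At E14 *Olig1* (345 and 311 FPKM) and *Olig2* (168 and 134) were lower in *Stat3* cKO, and *Sox10* (6.74 and 20.6) and *Pdgfra* (35.9 and 61.2) higher. The 6 neuron markers summed to 672 to 901 FPKM. Microglial, endothelial and erythroid markers summed to at most 1.93, 4.58 and 0.430 FPKM, with *Aif1* at 0 in E14 WT. These are bulk libraries, in which fewer cells of a type and less RNA per cell cannot be told apart, and the part of these cell types in the values below was not tested.

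The start regions of 5 members are shown because they hold a match to a motif of the mitochondrial biogenesis programme. The windows run from 250 bases before to 50 bases after an annotated start, were taken from RefSeq on GRCm38.p6, and are written along the gene's strand with matches in capitals. 9 of the 10 members had a window, 14 windows in all. Matches were sought on both strands to the NRF-1 core GCATGCGC, to the GABP (ETS) element CCGGAAGT, to the STAT element TTCNNNGAA and to the ERR element TCAAGGTCA. *Opa1* lies at chr16:29579084-29579383 on the plus strand, with 2 overlapping NRF-1 core matches that begin 59 and 57 bases before the start. These 2 matches are 1 palindromic stretch read on both strands. *Esrra* lies at chr19:6921759-6922058 on the minus strand, with 1 NRF-1 core match 34 bases before the start. *Tfam* lies at chr10:71237995-71238294 on the minus strand, with a GABP match 47 bases before the start. *Mfn1* lies at chr3:32529232-32529531 on the plus strand, with a GABP match 44 bases before the start. *Fis1* lies at chr5:136953025-136953324 on the plus strand, with a GABP match 18 bases before the start, and a second annotated start of *Fis1* also has one, 19 bases after it.
Opa1: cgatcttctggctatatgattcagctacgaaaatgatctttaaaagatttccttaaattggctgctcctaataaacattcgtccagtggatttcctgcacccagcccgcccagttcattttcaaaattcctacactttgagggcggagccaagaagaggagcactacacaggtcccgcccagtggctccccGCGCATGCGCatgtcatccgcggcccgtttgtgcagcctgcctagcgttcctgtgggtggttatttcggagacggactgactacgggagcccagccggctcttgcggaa
Esrra: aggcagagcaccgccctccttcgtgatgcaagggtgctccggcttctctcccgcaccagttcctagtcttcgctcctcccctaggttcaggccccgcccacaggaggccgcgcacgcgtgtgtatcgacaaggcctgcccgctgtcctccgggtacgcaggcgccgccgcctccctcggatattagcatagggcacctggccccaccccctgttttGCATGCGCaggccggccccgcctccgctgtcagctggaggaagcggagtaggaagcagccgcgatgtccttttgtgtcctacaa
Tfam: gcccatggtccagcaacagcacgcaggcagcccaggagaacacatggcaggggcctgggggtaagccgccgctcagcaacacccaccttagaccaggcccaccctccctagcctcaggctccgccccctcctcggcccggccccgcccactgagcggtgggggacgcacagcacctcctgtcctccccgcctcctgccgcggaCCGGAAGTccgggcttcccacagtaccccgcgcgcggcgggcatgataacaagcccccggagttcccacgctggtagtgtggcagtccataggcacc
Mfn1: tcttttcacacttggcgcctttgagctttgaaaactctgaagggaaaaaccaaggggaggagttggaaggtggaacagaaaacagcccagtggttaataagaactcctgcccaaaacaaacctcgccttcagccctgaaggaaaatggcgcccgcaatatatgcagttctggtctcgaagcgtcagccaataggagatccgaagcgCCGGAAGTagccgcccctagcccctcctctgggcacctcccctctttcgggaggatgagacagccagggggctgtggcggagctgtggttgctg
Fis1: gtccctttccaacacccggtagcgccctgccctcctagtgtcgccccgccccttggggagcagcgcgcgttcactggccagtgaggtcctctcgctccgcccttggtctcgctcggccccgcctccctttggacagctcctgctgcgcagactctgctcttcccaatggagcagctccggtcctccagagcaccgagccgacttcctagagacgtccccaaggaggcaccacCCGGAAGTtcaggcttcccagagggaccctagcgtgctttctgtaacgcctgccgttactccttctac
Over all 32851 windows of the table, 2.71% hold the NRF-1 core, 3.89% the GABP element, 8.30% the STAT element and 0.423% the ERR element. No window of the 9 members holds the STAT or ERR letters, which says nothing about binding of these factors here or elsewhere.

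Transcript levels of the 10 genes spanned a wide range, and the order was the same in the WT and *Stat3* cKO libraries of a stage (the plot of expression by library shows this). *Fis1* was the highest member throughout, at 115 FPKM in E11 WT, 122 in E11 *Stat3* cKO, 188 in E14 WT and 199 in E14 *Stat3* cKO, and its mean lay at percentile 95.8 of the 12449 entries whose mean over the libraries reached 1 FPKM. *Dnm1l* was the next, at 36.7, 38.3, 45.8 and 35.7 FPKM in the same order of libraries. The 2 genes for fission thus had the highest levels, and *Fis1* alone stood well apart from the rest.

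The fusion genes were lower than both. *Opa1* had 22.8 FPKM in E11 WT, 21.4 in E11 *Stat3* cKO, 32.8 in E14 WT and 26.0 in E14 *Stat3* cKO. *Mfn1* had 12.8, 14.9, 21.8 and 18.3 FPKM, and *Mfn2* 14.4, 15.4, 17.9 and 16.8, in the same order. The mitofusins changed places between the stages, *Mfn2* being the higher at E11 and *Mfn1* at E14 in both genotypes.

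Among the biogenesis genes, *Nrf1* had 23.7 FPKM in E11 WT, 24.7 in E11 *Stat3* cKO, 34.7 in E14 WT and 28.5 in E14 *Stat3* cKO. *Tfam* had 18.8, 19.0, 27.2 and 19.9 FPKM, so that E14 WT stood above the other 3 libraries. *Esrra* had 11.1, 10.8, 30.2 and 24.3 FPKM, and its place among the members moved from the eighth at E11 to the fifth at E14. Both coactivators were low. *Ppargc1a* had 1.04 FPKM in E11 WT, 1.17 in E11 *Stat3* cKO, 2.79 in E14 WT and 2.35 in E14 *Stat3* cKO, at percentile 7.85 of the mean levels. *Ppargc1b* had 0.295, 0.262, 0.154 and 0.194 FPKM, which correspond to about 53, 36, 23 and 32 fragments. Its mean of 0.226 FPKM is below the minimum of 1, so 9 of the 10 members enter the counts and medians that follow.

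**Figure D1:**
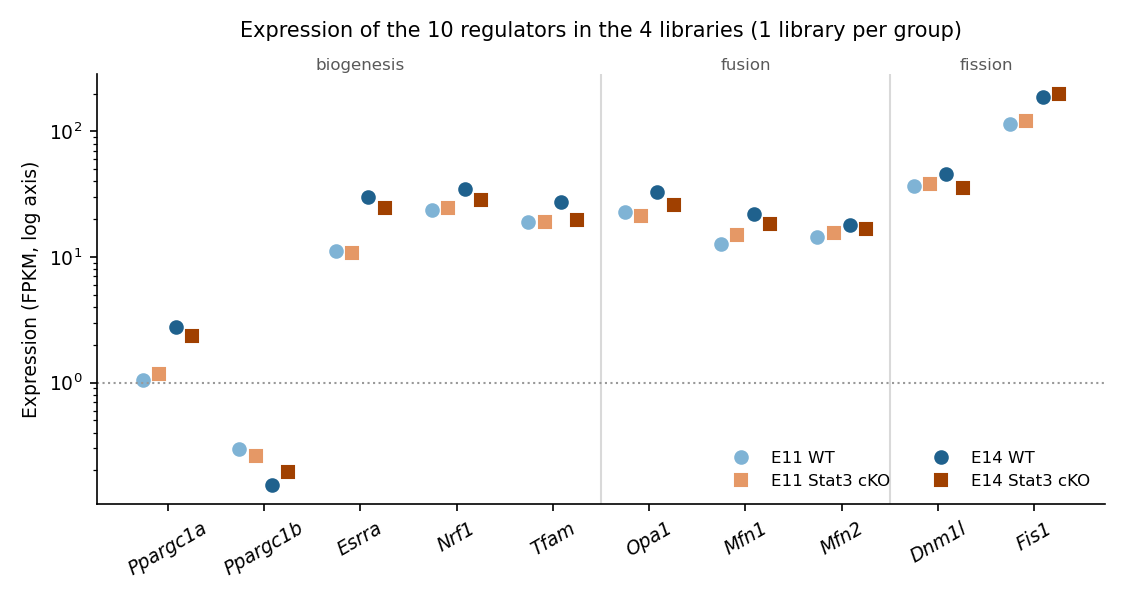
Expression of the 10 members (FPKM on a log axis) in the 4 libraries, 1 point per library, with the dotted line at 1 FPKM. *Fis1* sits at 115 to 199 FPKM, *Ppargc1a* at 1.04 to 2.79 and *Ppargc1b* below the line, and in WT *Esrra* shows the widest gap between stages.

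From E11 to E14 in WT, all 9 members had a ratio above 1 as deposited, as did 7525 of 12430 genes. *Esrra* rose by 1.44 on the log2 scale (2.72-fold) and *Ppargc1a* by 1.42 (2.67-fold). These were the 2 of 9 that passed 2-fold, and with 1 FPKM added *Ppargc1a* no longer did (0.89). Among all genes analysed, 14.6% rose and 12.5% fell by that measure. *Mfn1* and *Fis1* followed, at 0.77 and 0.71, and these 4 members reached 1.5-fold, as did 30.3% of all genes. *Nrf1*, *Tfam* and *Opa1* had log2 ratios of 0.55, 0.53 and 0.52, and *Dnm1l* and *Mfn2* had 0.32 and 0.31. The median of the 9 was 0.55 against 0.21 over all genes. Since the median of all genes lay above 0 here, ratios were also read against another scaling. With upper-quartile scaling, which lowers each log2 ratio by 0.37, *Dnm1l* and *Mfn2* had -0.050 and -0.056, and the other 7 stayed above 0. *Ppargc1b* had a log2 ratio of -0.94, with a counting interval from -1.64 to -0.23.

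In *Stat3* cKO, 8 of 9 members had a ratio of E14 to E11 above 1, as did 6627 of 12426 genes. Again *Esrra* (1.17, or 2.25-fold) and *Ppargc1a* (1.0, or 2.0-fold) rose. Among all genes, 10.1% rose and 11.7% fell 2-fold. The value of *Ppargc1a* lies at the threshold itself, with a counting interval from 0.80 to 1.20, and was 0.85 with upper-quartile scaling and 0.62 with 1 FPKM added. *Fis1* had 0.71 and with these 2 made 3 members past 1.5-fold, against 21.6% of all genes. Its stage ratio was the same in WT as deposited, but with upper-quartile scaling it was 0.34 in WT and 0.56 in *Stat3* cKO. *Mfn1*, *Opa1* and *Nrf1* had 0.30, 0.28 and 0.21, and *Mfn2* and *Tfam* 0.12 and 0.063. *Dnm1l* was the member below 0, at -0.10. The median of the 9 was 0.28 against 0.058 over all genes, and with upper-quartile scaling *Tfam* and *Mfn2* also lay below 0, at -0.085 and -0.029. The stage comparisons run alongside the mesenchymal and glial marker levels given above.

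**Figure D2:**
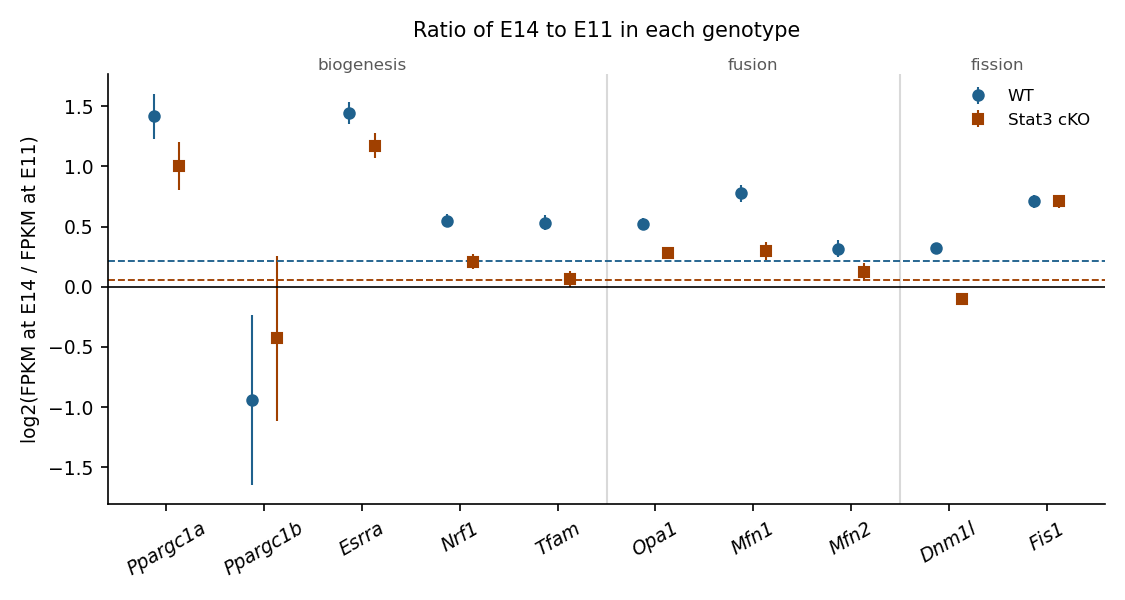
Log2 ratio of FPKM at E14 to E11 for each member in WT (circles) and *Stat3* cKO (squares), with bars for the approximate 95% counting interval and dashed lines for the median of all genes (0.21 in WT, 0.058 in *Stat3* cKO). *Esrra* and *Ppargc1a* lie highest in both genotypes, and *Fis1* has 0.71 in each as deposited, which becomes 0.34 and 0.56 with upper-quartile scaling.

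*Stat3* cKO was compared with WT at each stage to see whether these regulators differed. The paper states that the Nestin-Cre cross reaches knockout in neural progenitors by E14. At E11 *Stat3* was only a little lower in *Stat3* cKO (6.74 against 7.41 FPKM in WT). These values do not show how far the deletion had gone at E11. At E14, 8 of the 9 members were lower in *Stat3* cKO as deposited, and none reached 2-fold, which 1.85% of all genes did upward and 1.69% downward. No member reached 1.5-fold either, a margin passed by 13.5% of all genes in one direction or the other. The lowest ratio was that of *Tfam*, at -0.45 on the log2 scale (0.731 times WT), which lay at percentile 13.3 of all genes. *Dnm1l* had -0.36 (0.779 times), *Opa1* -0.34, *Esrra* -0.31 and *Nrf1* -0.28. *Mfn1* had -0.26, *Ppargc1a* -0.25 and *Mfn2* -0.099. *Fis1* was the exception at 0.083, or 1.06 times WT. The median of the 9 was -0.28, against -0.079 over all genes, where 7475 of 12430 genes were lower in *Stat3* cKO. After centring on the median gene these 8 stayed below 0, *Mfn2* at -0.020. With upper-quartile scaling *Mfn2* lay above 0, at 0.054, and the median of the 9 was -0.13. *Ppargc1b* had 0.34, with a counting interval from -0.44 to 1.11 that includes 0. Of the 6 neuron markers, 5 were also lower in *Stat3* cKO at E14, with a median of -0.25 and sums of 901 FPKM in WT and 788 in *Stat3* cKO, whereas 6 of the 8 neural progenitor markers were higher, with a median of 0.28. The part of either in the members' values was not tested.

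At E11, *Mfn1* was the highest, at 0.22 (1.17 times WT), followed by *Ppargc1a* at 0.16, whose counting interval from -0.064 to 0.39 includes 0. *Mfn2*, *Fis1*, *Nrf1*, *Dnm1l* and *Tfam* lay from 0.016 to 0.096, and *Esrra* and *Opa1* at -0.039 and -0.094. *Ppargc1b* had -0.17. No member reached 2-fold, which 0.209% of all genes did upward and 1.12% downward, or 1.5-fold, which 5.84% did in either direction. The median of the 9 was 0.059, the same as that of all genes. As deposited 7 of 9 were above 0, as were 7677 of 12430 genes, but 4 of 9 were with upper-quartile scaling.

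**Figure D3:**
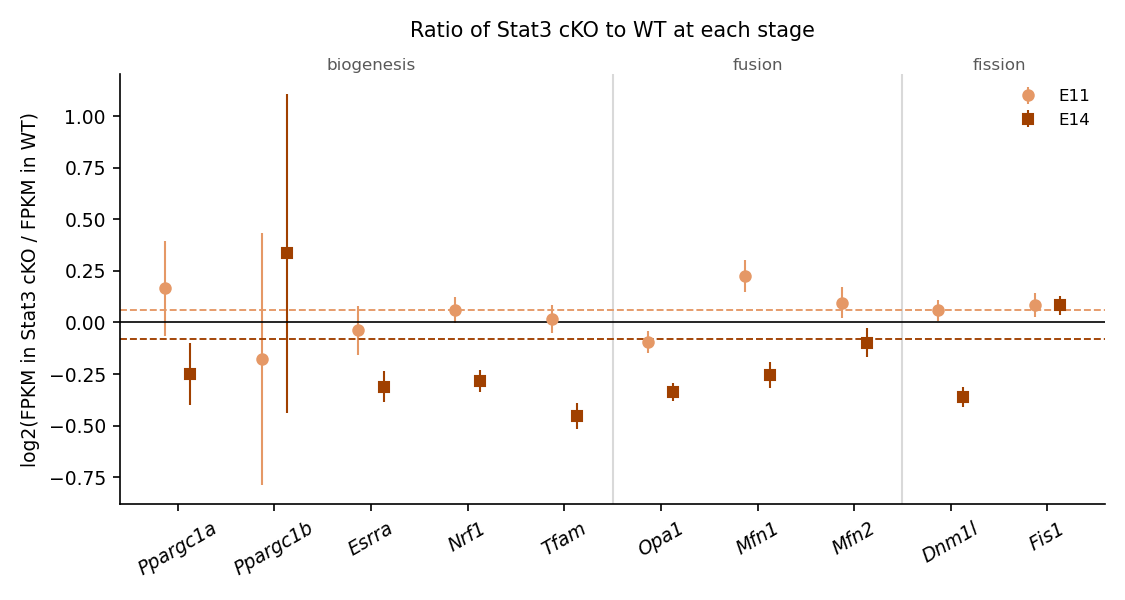
Log2 ratio of FPKM in *Stat3* cKO to WT for each member at E11 (circles) and E14 (squares), with bars for the approximate 95% counting interval and dashed lines for the median of all genes (0.059 at E11, -0.079 at E14). At E14 all members but *Fis1* and the scarcely detected *Ppargc1b* lie below 0, from -0.45 for *Tfam* to -0.099 for *Mfn2*, which turns to 0.054 with upper-quartile scaling.

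As deposited, the log2 genotype ratio at E14 minus that at E11 was -0.48 for *Mfn1*, -0.47 for *Tfam*, -0.42 for *Dnm1l* and -0.41 for *Ppargc1a*. It was -0.34 for *Nrf1*, -0.27 for *Esrra*, -0.24 for *Opa1* and -0.19 for *Mfn2*. For *Fis1* it was -0.00038, with 1.06 times WT at both stages. These sizes depend on the scaling, and with upper-quartile scaling each difference was higher by the same amount. It was then -0.26 for *Mfn1*, -0.25 for *Tfam*, -0.20 for *Dnm1l* and -0.19 for *Ppargc1a*. *Nrf1*, *Esrra* and *Opa1* had -0.12, -0.050 and -0.021, whereas *Mfn2* turned to 0.027 and *Fis1* to 0.22. By arithmetic the same numbers are the stage ratio in *Stat3* cKO minus that in WT, and they are not a further measurement. Among all genes these differences lay between percentile 19.0 for *Mfn1* and 62.1 for *Fis1* over the 9 members. The 4 libraries are shared by all 4 comparisons, and these differences were not tested.

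Ratios between members of the same library do not depend on how libraries were scaled, and the pairs were chosen after the levels had been seen. *Fis1* was 3.13 times *Dnm1l* in E11 WT, 3.18 times in E11 *Stat3* cKO, 4.10 times in E14 WT and 5.58 times in E14 *Stat3* cKO. The adaptor thus had its highest level relative to the GTPase in E14 *Stat3* cKO. *Mfn1* to *Mfn2* was 0.885 in E11 WT, 0.967 in E11 *Stat3* cKO, 1.22 in E14 WT and 1.09 in E14 *Stat3* cKO. *Opa1* to *Dnm1l* was 0.621, 0.558, 0.715 and 0.728 in the same order, nearly equal between genotypes at E14. *Mfn1* to *Dnm1l* was 0.348, 0.390, 0.477 and 0.513, and *Mfn2* to *Dnm1l* was 0.393, 0.403, 0.391 and 0.469. Both mitofusins were thus higher relative to *Dnm1l* in *Stat3* cKO than in WT at E14. *Tfam* to *Nrf1* was 0.794, 0.770, 0.783 and 0.697.

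**Figure D4:**
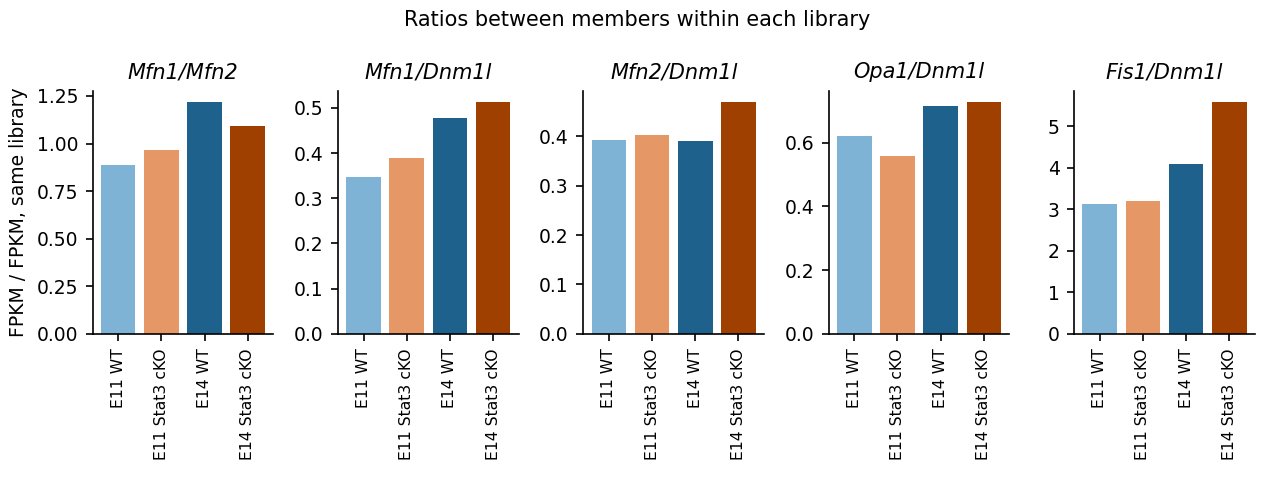
Ratios of FPKM between pairs of members within each of the 4 libraries, 1 bar per library, each axis from 0. *Fis1* to *Dnm1l* is 5.58 in E14 *Stat3* cKO against 3.13 to 4.10 in the other 3 libraries, and *Mfn1* to *Mfn2* exceeds 1 at E14 and not at E11.

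Profiles over 4 libraries are short, and many genes share any one of them. Among all 10 members, those with the lowest and the highest ratio of *Stat3* cKO to WT at E14 were taken. They were set against genes averaging 5 FPKM or more, by the Euclidean distance of centred log2 FPKM. *Tfam* was closest to *Ythdc2*, *Thoc1* and *Trub1*, at distances of 0.013, 0.019 and 0.032, and 860 of 9190 genes lay within 0.25 of it. *Ppargc1b* was closest to *Pla2g15*, *Slc39a13* and *Nucb1*, at 0.074, 0.097 and 0.10, with 109 of 9191 genes within 0.25. With about 23 to 53 fragments per library and a mean under 1 FPKM, the profile of *Ppargc1b* carries much counting error. Of the 9 analysed members *Fis1* had the highest ratio, at 0.083.

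Other genes of mitochondrial upkeep were taken from 6 lists of 78 genes. Of 14 genes for replication and transcription of mitochondrial DNA, 12 were lower in *Stat3* cKO at E14 as deposited. Of all genes, 7475 of 12430 were lower there. The median log2 ratio of the 14 was -0.13, which turned to 0.023 with upper-quartile scaling. None of them reached 2-fold, which 1.85% of all genes did upward and 1.69% downward. *Polg*, the catalytic subunit of the mitochondrial DNA polymerase, had 13.1 FPKM in E11 WT, 15.6 in E11 *Stat3* cKO, 64.5 in E14 WT and 47.3 in E14 *Stat3* cKO. It rose by 2.30 on the log2 scale in WT and by 1.60 in *Stat3* cKO, and was the 1 gene of the 14 to pass 2-fold upward in either genotype, against 14.6% and 10.1% of all genes. *Mterfd2*, of the mitochondrial transcription termination factor family and named after its value was seen, was the 1 that fell 2-fold with stage in *Stat3* cKO, against 11.7% of all genes. Of 16 analysed partners of PGC-1 and NRF factors, 12 were lower in *Stat3* cKO at E14, against 7475 of 12430 genes. Their median was -0.16 (-0.0098 with upper-quartile scaling). *Pprc1*, a coactivator related to PGC-1alpha, fell by 1.14 on the log2 scale, from 1.95 FPKM in WT to 0.889 in *Stat3* cKO, and had 2.13 and 2.42 FPKM at E11. The call was lost with upper-quartile scaling (-0.98) and with 1 FPKM added (-0.65). It was the 1 gene of these 16 that passed 2-fold there, against 1.69% of all genes, and *Esrrg*, an orphan nuclear receptor of the ERR family, was the 1 that passed 2-fold from E11 to E14 in WT, from 1.79 to 0.863 FPKM, against 12.5% of all genes that fell. That call was lost with 0.1 FPKM added (-0.97) or 1 FPKM added (-0.58). In *Stat3* cKO 4 of the 16 fell 2-fold with stage, among them *Pprc1* and *Esrrg*, against 11.7% of all genes. The others, named after their values were seen, were *Gabpb2* (-1.05) and *Rxra* (-1.09). They lie near the threshold and were not put through the other settings. The call of *Pprc1* was lost with 1 FPKM added (-0.86) and that of *Esrrg* with 0.1 FPKM added (-0.98) or 1 FPKM added (-0.55). None of the 16 rose 2-fold with stage, against 14.6% of all genes in WT and 10.1% in *Stat3* cKO, and the 3 genes of the list with a mean under 1 FPKM, among them *Ppara* and *Esrrb*, are outside these counts.

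Of 15 analysed genes for fusion accessories and cristae (proteases that process OPA1, prohibitins and cristae proteins), 14 were lower in *Stat3* cKO at E14. Of all genes, 7475 of 12430 were. At E11 14 of the 15 were higher, as were 7677 of 12430 genes. The medians at E14 and E11 were -0.25 and 0.13 (-0.092 and 0.058 with upper-quartile scaling). *Phb*, a prohibitin of the inner membrane, had 54.1 FPKM in E11 WT, 58.5 in E11 *Stat3* cKO, 153 in E14 WT and 110 in E14 *Stat3* cKO. From E11 to E14, 3 of the 15 rose 2-fold in WT and 1 did in *Stat3* cKO, near the shares of all genes (14.6% and 10.1%). At 1.5-fold, 10 of the 15 were higher in WT and 4 in *Stat3* cKO, against 30.3% and 21.6% of all genes. The median stage ratio of the list was 0.68 in WT and 0.28 in *Stat3* cKO, against 0.21 and 0.058 over all genes. With upper-quartile scaling the list had 0.31 and 0.13. Of 12 analysed genes for fission accessories, 10 were lower at E14 in *Stat3* cKO, against 7475 of 12430 genes. Their median was -0.17 (-0.019 with upper-quartile scaling). *Mtfp1*, an inner membrane protein of fission, had 2.55, 3.45, 8.26 and 5.80 FPKM in the same order of libraries. In WT 2 of the 12 rose 2-fold with stage and in *Stat3* cKO 1 did, again near the shares of all genes (14.6% and 10.1%). Of 4 transport genes, 3 were lower at E14 in *Stat3* cKO, against 7475 of 12430 genes. Their median was -0.25 (-0.098 with upper-quartile scaling). *Rhot1*, an outer membrane protein that links mitochondria to motor proteins, had 20.5, 22.4, 36.6 and 28.7 FPKM, while *Trak1*, an adaptor of the same transport, had 8.86, 9.39, 14.0 and 19.9. From E11 to E14 in *Stat3* cKO *Trak1* was the 1 of 4 to rise 2-fold, against 10.1% of all genes, and with upper-quartile scaling it did not (0.94).

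The mitophagy list lay on the other side. Of 11 genes, 10 were higher in *Stat3* cKO than in WT at E14, as were 4955 of 12430 genes. Their median log2 ratio was 0.28, against -0.079 over all genes, and became 0.36 and 0.43 with the 2 other scalings. None reached 2-fold, which 1.85% of all genes did upward and 1.69% downward. The list was not split by whether a gene promotes or restrains mitophagy. *Park2*, which encodes the ubiquitin ligase parkin, had the largest ratio at 0.83, from 0.646 FPKM in WT to 1.15 in *Stat3* cKO, but had 1.75 and 1.19 FPKM at E11. It fell by 1.44 on the log2 scale from E11 to E14 in WT and stood at -0.055 in *Stat3* cKO. *Bnip3*, a mitophagy receptor named after its value was seen, fell with stage in both genotypes, from 47.8 to 20.6 FPKM in WT and from 57.9 to 28.5 in *Stat3* cKO. These made 2 of 11 that fell in WT and 1 in *Stat3* cKO, against 12.5% and 11.7% of all genes. With 1 FPKM added the fall of *Park2* in WT was no longer 2-fold (-0.74), and its genotype ratio at E14 was 0.39. *Pink1*, the kinase that recruits parkin and which was named after its value was seen, had 44.0 FPKM in E11 WT, 48.2 in E11 *Stat3* cKO, 52.4 in E14 WT and 74.8 in E14 *Stat3* cKO. At E11 the list had a median of 0.098, with 7 of 11 above 0.

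**Figure D5:**
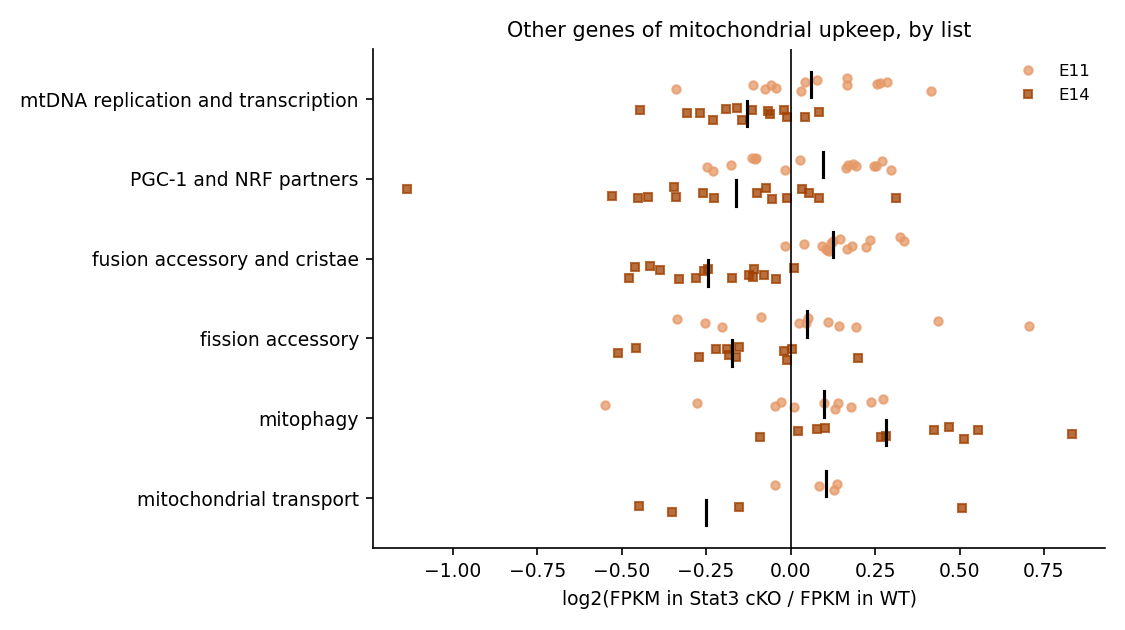
Log2 ratio of FPKM in *Stat3* cKO to WT for the analysed genes of 6 lists, at E11 (circles) and E14 (squares), 1 point per gene, with black bars for the medians. The mitophagy median at E14 is 0.28, whereas the medians of the other 5 lists at E14 lie from -0.25 to -0.13 as deposited, that of the mitochondrial DNA list turning to 0.023 with upper-quartile scaling.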

How the data were processed

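RNA-seq was available for 4 libraries, 1 for each group. The authors checked reads with FastQC, ran the TopHat and Cufflinks workflow and deposited FPKM values. The submitters' processing notes name Bowtie 0.12.2 and the builds mm8 and mm9, with no statement of which build the coordinates use, so no coordinates of the expression tables are given. The deposited FPKM entered all steps unchanged. Of 21091 entries, the 12449 whose mean over the libraries reached 1 FPKM were kept. Ratios were taken without a pseudocount, genes at 0 in either library were given none, and a ratio of 2 counted as a change. No replicate exists, so no test was run. Members and lists were chosen with earlier results of these data known. 10 genes of the lists were found under an older symbol, and *Rhot2*, which the tables join with another gene, was left out. From each of the 6 wider lists the genes with the largest absolute log2 ratio between genotypes at E14 and between stages in WT were named, and for the extreme members at E14 the 3 nearest profiles. Lengths for fragment numbers were those of the longest GENCODE M21 transcript, and the FPKM times kilobases that a lone fragment gives was read from the lowest peak over genes longer than 1 kb. The steps were tested on simulated data. Python 3.11.15, numpy 2.4.6, pandas 2.3.3 and matplotlib 3.10.9 were used. Alternatives were pseudocounts of 0.1 and 1, other scalings, a minimum mean of 5 FPKM or none, and ratios of 1.5 and 3.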

Additional observations from a re-analysis of the deposited data

Results flagged for a closer look

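As deposited, 7 of the 10 members and some other genes had genotype ratios on opposite sides of 0 at the 2 stages. The share of all genes that did so was not counted. The median of all genes also lay on opposite sides of 0, at 0.059 at E11 and -0.079 at E14, so the count is no trait of the members. With upper-quartile scaling 3 of the 10 did (*Ppargc1a*, *Ppargc1b* and *Mfn1*), since *Tfam*, *Nrf1* and *Dnm1l* were then below 0 at E11 and *Mfn2* above 0 at E14. With 1 library per group, none of these differences was tested, and the sign of a ratio near 0 carries little weight. As deposited, the difference of the log2 genotype ratio, E14 minus E11, was -0.41 for *Ppargc1a*, 0.51 for *Ppargc1b*, -0.47 for *Tfam* and -0.34 for *Nrf1*. It was -0.48 for *Mfn1*, -0.19 for *Mfn2* and -0.42 for *Dnm1l*. Among the named genes of the wider lists it was -0.70 for *Polg*, -1.32 for *Pprc1*, -0.59 for *Phb*, -0.95 for *Mtfp1*, 1.38 for *Park2* and -0.48 for *Rhot1*. These are as deposited too, and with upper-quartile scaling each is higher by the same amount as for the members. *Rhot1* then had genotype ratios of -0.20 at E14 and 0.059 at E11. *Dnm1l* also had stage ratios of opposite sign, 0.32 in WT and -0.10 in *Stat3* cKO, a difference of -0.42, and both were below 0 with upper-quartile scaling (-0.050 and -0.25).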

How the results depend on the processing

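No paired analysis was possible because each group has 1 library. With upper-quartile scaling the median log2 ratio of the 9 members was -0.13 between genotypes at E14, -0.0096 at E11, 0.18 between stages in WT and 0.13 in *Stat3* cKO. Centring on the median gene gave 0.34 between stages in WT. Upper-quartile scaling put 2 of 9 members above 1 between genotypes at E14 and 4 of 9 at E11, and without a filter 2 of 10 were above 1 at E14. The 2 members at least 2-fold higher with stage in WT became 1 with 1 FPKM added or a minimum mean of 5 FPKM, 4 with a ratio of 1.5 and 0 with a ratio of 3. The 2 in *Stat3* cKO became 1 with 0.1 or 1 FPKM added, with either other scaling or with a minimum mean of 5 FPKM, and 0 with a ratio of 3. Of 40 log2 ratios of single members, 8 changed sign with upper-quartile scaling, 1 after centring on the median gene and 0 with either pseudocount. No ratio past 2-fold changed sign under the scalings and pseudocounts. Counting error limits *Ppargc1b* and, less, *Ppargc1a*, and the lack of replicates limits all values.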
